A study of Ovis aries with 40 samples.

Results

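The genes described here are 7 genes of glycogen synthesis and breakdown, measured in the longissimus muscle (LM) of 40 sheep. They were the genes PYGM, PYGB, PYGL, UGP2, PGM1, GBE1 and GYG1, chosen by name, with every probe set of the array that carries 1 of these symbols alone. All 7 were found among 9155 genes, on 9 of 24128 probe sets, and 5 of them were among the 6360 detected genes. The animals of the High-Low group were Poll Dorset sheep at 78 weeks of age, raised under Australian industry conditions, and muscle was frozen within minutes of euthanasia. The 19 high muscling animals were progeny of 3 sires with an extreme high estimated breeding value for eye muscle depth (sire 11 with 8 progeny, sire 2 with 7, sire 7 with 4). The 21 low muscling animals were progeny of 3 sires with an extreme low value (sire 16 with 8, sire 17 with 5, sire 5 with 8). No animal received a treatment. Muscling was thus assigned through the sire and not through the animal itself, each sire had progeny in 1 group only, and the labels give no dam, sex, date or batch.

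Glycogen is the glucose store of muscle. Phosphoglucomutase (PGM1) interconverts glucose 6-phosphate and glucose 1-phosphate, and UDP-glucose pyrophosphorylase (UGP2) turns the latter into UDP-glucose, the donor of glucosyl units. Glycogenin (GYG1) starts each particle by adding glucose to itself, glycogen synthase extends the chains, and the branching enzyme (GBE1) makes the branch points. Glycogen phosphorylase removes units again as glucose 1-phosphate and exists as the muscle (PYGM), liver (PYGL) and brain (PYGB) forms, so PGM1 lies on both routes. Fast fibres are known for their reliance on glycogen and glycolysis, slow fibres for oxidation of fatty acids.

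The array carries probe sets made to cattle sequence, and each value is a signal on a linear scale, scaled so that the trimmed mean of an array is 200. Array medians were 56.1 to 67, and the Pearson correlation between 2 arrays over detected genes was 0.902 to 0.963. A gene was taken as detected where its mean signal over the 40 arrays was at least 61.8, the median over probe sets other than controls. Levels of 2 genes cannot be set against each other, because probe sets differ in how they bind. All 8 measured markers of muscle fibres (of 10 listed) were detected, and their summed signal was 171856 to 235198 in high and 170840 to 227304 in low muscling. The summed signal of 5 fibroblast markers, all detected, was 4645 to 11512 in high and 7290 to 21726 in low muscling. In samples of whole muscle, fewer cells of a type and less RNA per cell cannot be told apart.

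PYGM (bovine gene 327664), the phosphorylase of muscle fibres, had a mean signal of 17569 ± 2187 (SD, n = 40), from 13867.5 to 22066 with a median of 17222. The standard deviation of its log2 signal was 0.18, and 3.30% of detected genes had a smaller one. Its mean signal ranked 34th of 9155 genes, and its spread was not compared with that of genes of like signal. PYGL (505472), the liver form, had 83.1 ± 27.9, from 31.9 to 168.1, and 32 of 40 arrays were at or above the detection limit. The brain form PYGB (505560) had 26.4 ± 21.6, from 3.8 to 85.6, and was not detected. Only 4 of 40 arrays reached the limit for PYGB.

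Of the synthesis side, UGP2 (281565) had 11723 ± 2644, from 6686 to 15856 with a median of 12518. PGM1 (534402) had 8720 ± 1841, from 5822 to 12006 with a median of 8139. Both spanned more than PYGM, with a highest signal 2.37 times the lowest for UGP2, 2.06 times for PGM1 and 1.59 times for PYGM. GYG1 (280812) had 4080 ± 738 (median 4032), and the range of 1936 to 5385 was set at its lower end by 1 animal, progeny 11 of sire 5. GBE1 (615745) had 38.0 ± 15.8, from 3.5 to 64.6, and was not detected, with 2 of 40 arrays at or above the limit.

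PGM1 and PYGL had a further probe set each. That of PGM1 (mean signal 7857 ± 1872) followed the first over the animals, with r = 0.959 (Spearman 0.918, n = 40). That of PYGL (71.1 ± 23.0) did so weakly, with r = 0.207 (Spearman 0.324), so the order of the animals by PYGL depends on the probe set. Values of PYGL below are those of the first probe set unless stated.

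**Figure D1:**
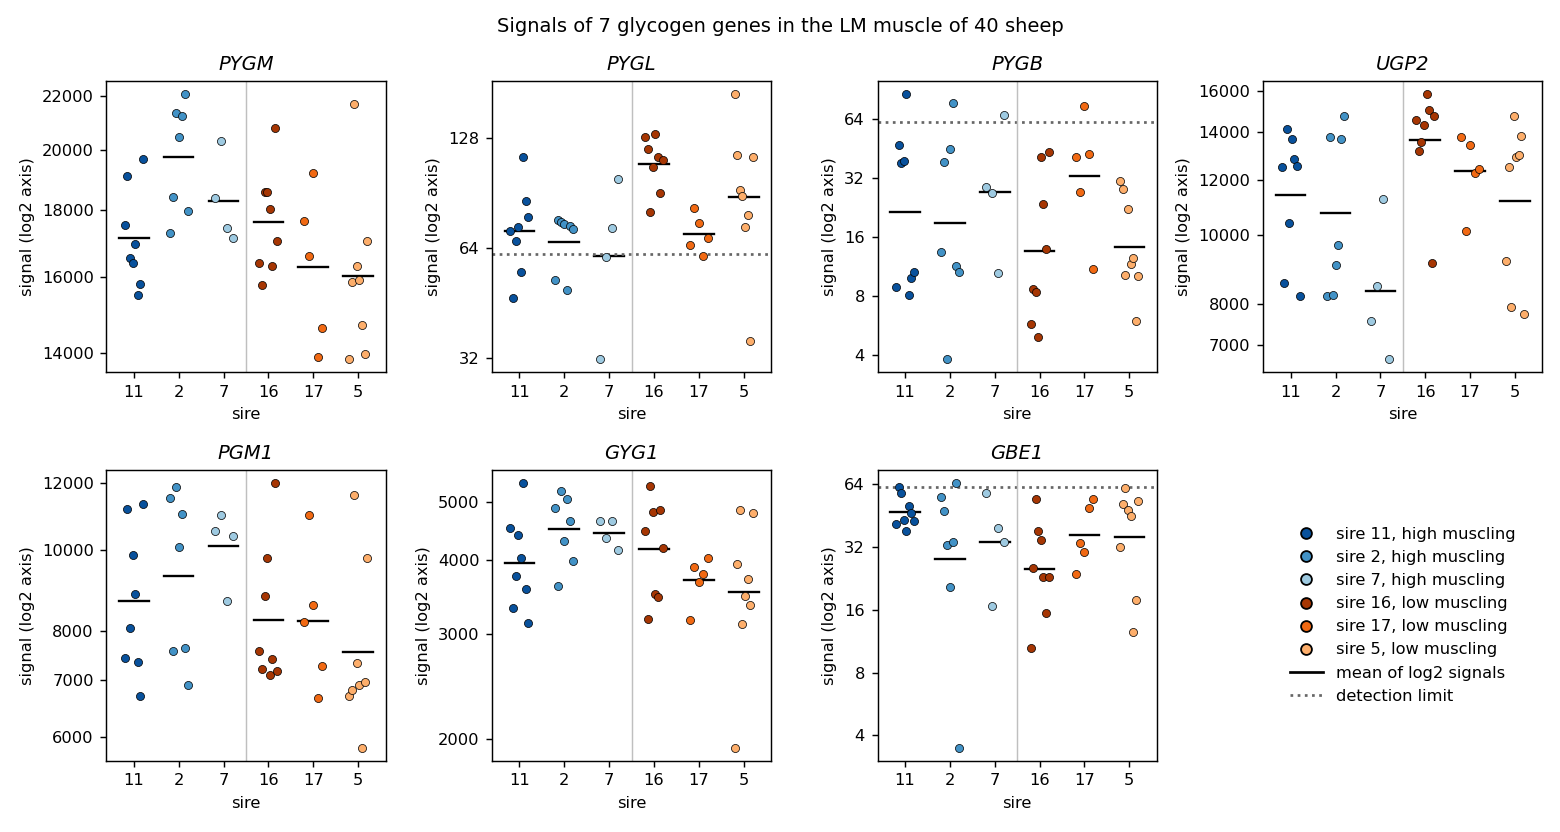
Signal of the main probe set of each gene (log2 axis) in the 40 animals, by sire. Each point is 1 animal, the bar is the mean of the log2 signals, the grey line separates the sires of high (left) and low muscling, and the dotted line is the detection limit of 61.8. The muscling groups overlap for every gene, the 4 progeny of sire 7 have UGP2 signals of at most 11257, and PYGB and GBE1 lie mostly under the limit.

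The comparison of high and low muscling asks whether glycogen genes differ between progeny of sires selected in opposite directions. None of the 5 detected genes passed the test (limma with sire as a random block, Benjamini-Hochberg adjusted over 6360 genes), where 7.78% of all detected genes did (495, of which 145 were higher and 350 lower in high muscling). At an unadjusted p under 0.05 there was 1 of the 5, PYGL, and 21.8% of all detected genes. The median difference, high minus low on the log2 scale, was 0.14 over the 5 genes and -0.04 over all detected genes. The groups overlapped for every gene. The calls depend on how sire enters the fit, as PYGL was called with no sire block (adjusted p = 0.0228), and PYGL and UGP2 with sire as a fixed effect (adjusted p 0.0313 and 0.0320, limma). Those fits called 24.9% and 24.0% of all detected genes. Both take the progeny and not the sires as the replicates of muscling, which was assigned through the sire. Over the 6 sire means, the exact permutation p was 0.2 for PYGL and for UGP2. With the spiked hybridisation controls regressed out of every gene, which left 0 of all detected genes called, the differences of PYGM, PYGL, UGP2, PGM1 and GYG1 were 0.08, -0.18, -0.11, 0.07 and 0.15 (adjusted p 0.759 to 0.911). That regression had no term for muscling, and the controls differed between groups (mean log2 signal 11.12 in high and 11.02 in low muscling). It can therefore also take out a difference that belongs to muscling.

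PYGL signals were 31.9 to 113.5 with a median of 72.4 in high muscling, and 35.6 to 168.1 with a median of 90.2 in low muscling. Of the low muscling animals, 17 of 21 were above the median of the high muscling animals. The difference was -0.41 on the log2 scale (SE 0.19, 95% interval -0.80 to -0.02, adjusted p = 0.196). The highest sire mean was that of sire 16, whose 8 progeny lay at 80.4 to 130.8. Without the 5 progeny of sire 17, at 60.9 to 82.2, the difference was -0.55 (adjusted p = 0.0462), and with the mean of both probe sets it was -0.12 (adjusted p = 0.726). The further probe set by itself gave a mean log2 signal of 6.13 in high and 6.01 in low muscling, the opposite direction. Fibroblast markers moved with the same contrast. Of the 5 such markers, 4 were called lower in high muscling, with a median difference of -0.78, and their mean log2 signal had r = 0.606 with PYGL. Of 6 detected leukocyte markers (of 7 listed), 2 were called lower (median difference -0.61), their summed signals were 458 to 1197 in high and 611 to 2177 in low muscling, and their r with PYGL was 0.437. The spiked controls, with a mean log2 signal of 11.12 in high and 11.02 in low muscling, had r = -0.461 with PYGL. The part of these cells in the PYGL difference was not tested. With the controls regressed out the difference was -0.18, but that regression had no term for muscling, so a technical part was not separated.

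UGP2 signals were 6686 to 14769 with a median of 10426 in high muscling and 7748 to 15856 with a median of 13184 in low muscling. The difference was -0.26 (SE 0.14, 95% interval -0.55 to 0.03, adjusted p = 0.280), and 16 of 21 low muscling animals were above the median of the high muscling animals. Sire 7 had the lowest mean of the 6 sires, and its 4 progeny had 7567.8, 8475.5, 11257 and 6685.5. Without sire 7 the UGP2 difference was -0.16 (adjusted p = 0.640).

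PGM1 ran the opposite way. Its signals were 6698 to 11879 with a median of 9858 in high muscling and 5822 to 12006 with a median of 7339 in low muscling, a difference of 0.22 (SE 0.13, 95% interval -0.04 to 0.47, adjusted p = 0.336). Of the high muscling animals, 17 of 19 were above the median of the low muscling animals. For PGM1 all 3 sire means of high muscling (13.09 to 13.30 on the log2 scale) were above all 3 of low muscling (12.88 to 13.01). In an exact two-sided permutation test over the 20 splits of the 6 sires this gave p = 0.1, the smallest value that the design allows, and the other 4 detected genes gave p = 0.2. The share of all detected genes with sire means apart in this way is not given here, so PGM1 is not set apart by it.

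PYGM signals were 15502 to 22066 with a median of 17982 in high muscling and 13867.5 to 21686 with a median of 16417 in low muscling, a difference of 0.14 (SE 0.08, 95% interval -0.02 to 0.30, adjusted p = 0.309). GYG1 signals were 3133 to 5385 with a median of 4351 in high muscling and 1936 to 5323 with a median of 3781 in low muscling, a difference of 0.17 (SE 0.12, 95% interval -0.08 to 0.42, adjusted p = 0.449). Neither difference passed the test, although 16 of 19 high muscling animals were above the low muscling median for PYGM and 14 of 19 for GYG1. For the genes that were not detected, in a fit of all 9155 genes, the differences were 0.30 for PYGB (95% interval -0.66 to 1.26, adjusted p = 0.823) and 0.19 for GBE1 (-0.48 to 0.86, adjusted p = 0.844).

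**Figure D2:**
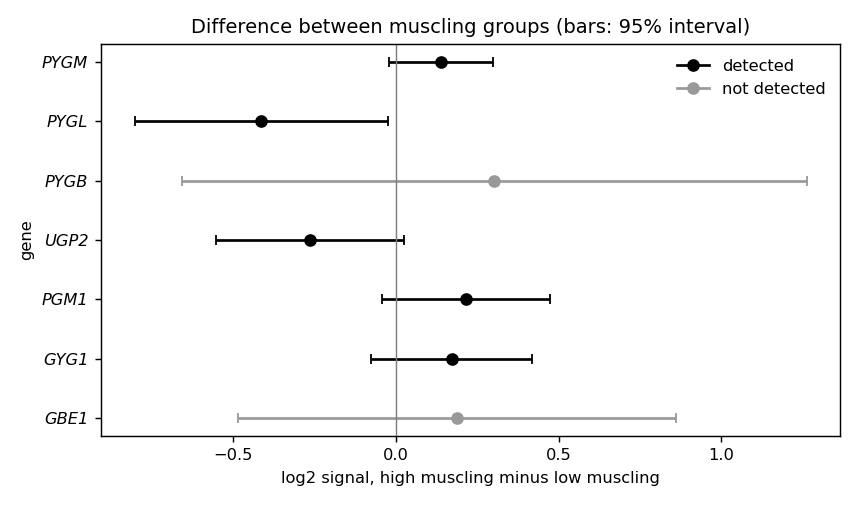
Difference in log2 signal between high and low muscling (x axis, high minus low) for each gene (y axis), with sire as a random block. Points are fitted differences and bars their 95% intervals, black for detected genes and grey for PYGB and GBE1. PYGL and UGP2 lie below 0 and PYGM, PGM1 and GYG1 above it, and the interval of PYGL alone does not reach 0 before adjustment.

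Differences between sires within a muscling group ask how much of the variation follows the family. None of the 5 detected genes passed (F test, limma), where 22.0% of all detected genes did. At an unadjusted p under 0.05 there were 0 of the 5 and 35.6% of all detected genes. The adjusted p was 0.187 for UGP2, 0.234 for PYGM, 0.250 for PYGL, 0.445 for GYG1 and 0.748 for PGM1. Differences between all 6 sires took 33.6% of the variance of PYGM, 33.4% of PYGL, 30.8% of UGP2, 20.5% of GYG1 and 18.2% of PGM1, so most of the variation lay between progeny of the same sire. These shares include the difference between muscling groups and a part that 6 groups of animals take by chance. For PYGM, the mean signal went from 16178 ± 2497 (SD, n = 8) in sire 5 to 19828 ± 1896 (n = 7) in sire 2, and the spread within sires was as large as the steps between neighbouring sires.

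Correlations between the genes over the animals ask which of the enzymes varied together. Of the 10 pairs of detected genes, 2 were called, which means that each gene was associated with the other in a fit with sire as a fixed effect, adjusted over the 6359 other detected genes. These were UGP2 with PGM1, which were inversely related, and PYGM with PGM1, which varied together. Among all other detected genes, 13.7% were called with UGP2 (474 positive and 396 negative), 16.1% with PGM1 (478 positive and 544 negative) and 2.44% with PYGM (81 positive and 74 negative). None was called with PYGL (0%) or GYG1 (0%), for which 329 and 759 genes had an unadjusted p under 0.05. These counts of 0 moved with the setting, to 63 for GYG1 without sire 11, 31 for GYG1 under median centring and 52 for PYGL with no sire term. PGM1 and UGP2 were thus each associated with a sizeable part of the muscle transcriptome, so a call with either is not rare.

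UGP2 and PGM1, which catalyse successive steps from glucose 6-phosphate to UDP-glucose, had r = -0.754 and a Spearman coefficient of -0.593 (n = 40, adjusted p = 3.5e-06 from limma). With 100000 permutations of the animals within sires, two-sided, p was 2.0e-05 for the log2 signals and 1.5e-04 for their ranks. The statistic was the covariance within sires, so permutation p-values here and below are not those of the pooled coefficients. With the sire means removed, r was -0.803. The correlation was negative within 6 of 6 sires and between -0.75 and -0.98 within the 4 sires with 7 or 8 progeny. It was -0.871 in high and -0.569 in low muscling. Without the 2 animals farthest from the UGP2 median r was -0.751, and with the further probe set of PGM1 it was -0.745. PGM1 had the 10th lowest r of all detected genes with UGP2, and UGP2 the 13th lowest with PGM1.

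**Figure D3:**
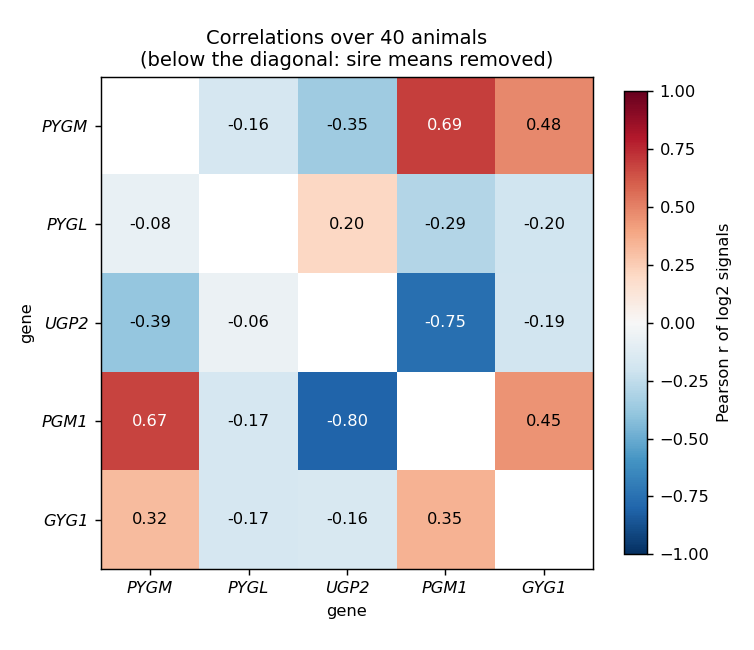
Pearson r of log2 signals for the 10 pairs of detected genes over 40 animals, with rows and columns naming the genes. Above the diagonal are the values as measured and below it those with sire means removed. The strongest cells are UGP2 with PGM1 (-0.75 and -0.80) and PYGM with PGM1 (0.69 and 0.67).

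The signals of each gene were cut at the widest empty step on the log2 scale that left at least 6 animals on each side. For UGP2 this gave a lower range of 16 animals up to 11257 and an upper range of 24 animals from 12256. For PGM1 it gave a lower range of 25 animals up to 8870 and an upper range of 15 animals from 9768. Steps nearer the ends were wider, at 6686 to 7568 for UGP2 and 5822 to 6658 for PGM1. The step at the cut was 9.85% of the log2 range for UGP2 and 13.3% for PGM1, where the median over detected genes under the same rule was 6.65%. A smaller step was found in 85.1% of detected genes for UGP2 and 96.0% for PGM1, so steps as wide as that of UGP2 are not rare. Of the 16 animals in the lower UGP2 range, 14 were in the upper PGM1 range, and of the 24 animals in the upper UGP2 range, 23 were in the lower PGM1 range. Both cuts were made on the values that gave the pooled r, so this overlap restates it and is no separate evidence. Within the lower and the upper UGP2 range, r between UGP2 and PGM1 was -0.298 and 0.260. The ranges were cut on UGP2 itself, which narrows its spread and by itself makes r smaller in size. These values therefore cannot show what the pooled value rests on. Both ranges held animals of both muscling groups. The lower UGP2 range held 3 of 8 progeny of sire 11, 4 of 7 of sire 2, 4 of 4 of sire 7, 1 of 8 of sire 16, 1 of 5 of sire 17 and 3 of 8 of sire 5. Whether the ranges are separate groups of animals was not tested.

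Technical measures moved with these genes in part. The mean log2 signal of the spiked hybridisation controls had r = -0.419 with UGP2 and 0.472 with PGM1, and with it regressed out of every gene the r of UGP2 with PGM1 was -0.694 (adjusted p = 2.2e-05). The ratio of the 3' to the 5' probe set of actin, which rises as RNA degrades, had r = 0.50 with UGP2 and -0.280 with PGM1, and regressing it out (added once the data had been seen) left r at -0.738 (adjusted p = 4.3e-06). The same ratio for GAPDH had r = -0.209 with UGP2 and -0.007 with PGM1. XIST, the transcript that coats the inactive X chromosome of females, was looked at after its values were seen. Its log2 signal ranged from 2.79 to 10.3 over the animals, with r = -0.06 with UGP2 and -0.08 with PGM1.

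PYGM and PGM1 had r = 0.694 and a Spearman coefficient of 0.738 (n = 40, adjusted p = 0.0071 from limma). With permutations within sires, p was 3.0e-05 for the log2 signals and for their ranks. With sire means removed r was 0.675, and it was positive within 6 of 6 sires, with 0.20 in sire 2 and 0.80 to 0.87 in sires 11, 16 and 5. It was 0.47 in high and 0.785 in low muscling, and 0.744 without the 2 animals farthest from the PYGM median. The values held within the ranges of UGP2 as well, with 0.764 over the 16 and 0.573 over the 24 animals. The call did not hold without the progeny of sire 5 (r = 0.589, adjusted p = 0.151), under quantile normalization (0.664, adjusted p = 0.155) or in high muscling alone (adjusted p = 0.378).

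**Figure D4:**
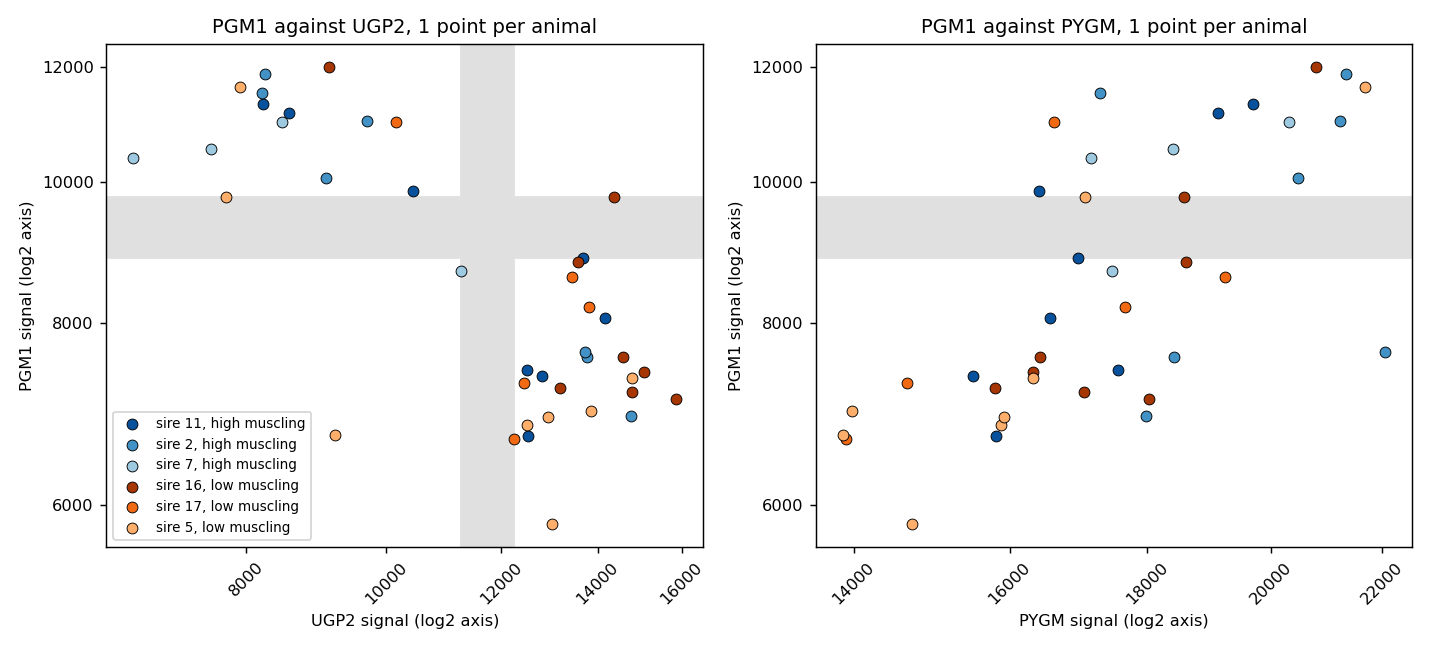
PGM1 signal (y axis) against UGP2 signal (left) and PYGM signal (right), log2 axes, 1 point per animal, coloured by sire (blue high muscling, orange low muscling). Grey bands mark the empty steps between the ranges of UGP2 (11257 to 12256) and PGM1 (8870 to 9768). Most animals lie in the upper left or lower right corner of the left plot, with progeny of both muscling groups in each.

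The other 8 pairs were not called. PYGM with GYG1 had r = 0.482 (permutation p = 0.098) and PGM1 with GYG1 0.446 (permutation p = 0.055), and with sire means removed these were 0.319 and 0.346. PYGM with UGP2 had r = -0.354 (permutation p = 0.022, adjusted p 0.149 and 0.181 in the fits of either gene on the other, limma). With the actin ratio regressed out this pair was called (r = -0.496, adjusted p = 0.0455, limma). UGP2 with GYG1 had -0.190, and the 4 pairs with PYGL lay between -0.293 and 0.204.

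The genes whose signals were most like UGP2 over the 40 animals included genes of fatty acid use. FABP3, the heart-type fatty acid-binding protein, had the highest r with UGP2 (0.855, 1693 to 17983), followed by HADHB (0.838), a subunit of the mitochondrial trifunctional protein of beta-oxidation. CALCOCO2, an autophagy receptor, was next with 0.834. The lowest r was that of TECR (-0.828), a reductase of fatty acid elongation, and of DHDH (-0.813), a dihydrodiol dehydrogenase. These genes were picked for their r, which is therefore a description, and no list of fatty acid genes was tested. LPL, lipoprotein lipase, and FABP4, both on the fat cell list below, had the opposite sign with UGP2 (-0.595 and -0.318). For FABP3, HADHB and TECR, r kept its sign and was 0.727 or more in size under all 20 alternatives. Within the lower and the upper UGP2 range the r with UGP2 was smaller, with 0.491 and 0.501 for FABP3, 0.340 and 0.383 for HADHB, 0.762 and 0.085 for CALCOCO2, -0.432 and -0.447 for TECR, and -0.510 and -0.438 for DHDH.

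The genes most like PGM1 were ITGB1BP2 (r = 0.882), which encodes the muscle protein melusin, ACTN3 (0.877), the alpha-actinin of fast fibres, and GPI (0.819), the glycolytic enzyme that uses glucose 6-phosphate. ITGB1BP2 spanned signals of 483 to 3796. The lowest were RHOT2 (-0.830), a GTPase of the outer mitochondrial membrane, and NOP16 (-0.828), a nucleolar protein. With the mean of all probe sets the r of RHOT2 was -0.370. Within the lower and the upper UGP2 range the r with PGM1 was 0.812 and 0.455 for ITGB1BP2, 0.816 and 0.490 for ACTN3, 0.768 and 0.408 for GPI, -0.686 and -0.178 for RHOT2, and -0.757 and -0.186 for NOP16. ACTN3 was also inversely related to UGP2 (r = -0.796), with -0.437 and -0.149 within these ranges.

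The genes most like PYGM were ATP2A1 (r = 0.831), the calcium pump of the fast-fibre sarcoplasmic reticulum, LDHA (0.797), lactate dehydrogenase A, and ENO3 (0.790), the muscle enolase. CYRIB, a regulator of RAC1, had the lowest r with -0.717 and ACTR2, a subunit of the actin-nucleating complex, had -0.681. The value of LDHA depends on its probe set, as the mean of its probe sets gave -0.112. For PYGL the highest were DYNLT3 (0.657), a dynein light chain, COL5A2 (0.640), a collagen chain, and GDI2 (0.638), a regulator of Rab proteins, and the lowest CAPN3 (-0.603), the muscle calpain, and ADCY2 (-0.575), an adenylyl cyclase. For GYG1 the highest were UPB1 (0.656), an enzyme of pyrimidine breakdown, GPI (0.619) and ENTPD1 (0.619), an ectonucleotidase, and the lowest GADD45A (-0.658), a stress-induced gene, and VMA21 (-0.60), an assembly factor of the proton pump. Without the 2 animals with the most extreme GYG1 the values of UPB1 and ENTPD1 were 0.399 and 0.335.

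Glycolysis, which takes up the glucose units released from glycogen, was read from 13 genes, all detected. With PGM1, 8 were called and all were positive, among them GPI (r = 0.819), LDHA (0.819), ENO3 (0.763) and TPI1 (0.756), the triose phosphate isomerase. The median r of the 13 was 0.556, against -0.02 over all detected genes. With UGP2, 9 were called and all were negative, among them GPI (-0.680), TPI1 (-0.573) and PGK1 (-0.568), the phosphoglycerate kinase, with a median of -0.413 against 0.01 over all detected genes. With PYGM, 5 were called, all positive (median 0.557), namely LDHA, ENO3, GAPDH (0.727), GPI (0.703) and PGAM2 (0.703). With GYG1 none was called, with a median of 0.256. Over all detected genes, 16.1% were called with PGM1, 13.7% with UGP2, 2.44% with PYGM and 0% with GYG1. UGP2 thus stood opposite to PGM1 and PYGM in its relation to the glycolytic genes. The 3 comparisons use the same 40 animals and are not independent of the r between the genes themselves. None of the 13 was called between high and low muscling, and 1 (ENO1, the non-muscle enolase, adjusted p = 0.0254) was called between sires. Of all detected genes, 7.78% were called between muscling groups and 22.0% between sires.

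Fibre-type genes of both classes were called with PGM1, where 16.1% of all detected genes were. Of 7 detected genes of fast fibres, 7 were called with PGM1, all positive, from TNNI2, the fast troponin I (0.508), to ACTN3 (0.877). Of 7 genes of slow fibres, 6 were called, also positive, among them MYH7, the slow myosin heavy chain (0.592), and TNNT1, the slow troponin T (0.610). TPM3, a tropomyosin gene of the slow list, had the opposite sign (-0.343) and was not called. It had -0.490 with PYGM and 0.204 with UGP2, again not called. PYGM was called with 4 fast-fibre genes (ATP2A1, TNNI2 with 0.708, ACTN3 with 0.686 and MYL1, a myosin light chain, with 0.671) and 2 slow-fibre genes (MYH7 and TNNT1). UGP2 was called with 1 of each, ACTN3 (-0.796) and TNNT1 (-0.420), both negative. Of all detected genes, 13.7% were called with UGP2 and 2.44% with PYGM. Of 9 genes of the tricarboxylic acid cycle, 3 were called with PGM1 (IDH3A 0.655, CS 0.543 and MDH2 0.440), 2 with PYGM (CS 0.603 and MDH2 0.598), and 1 with UGP2 (IDH3A, -0.585). The count for UGP2 in each of these lists was near its share over all detected genes. Genes of both fibre classes and of the cycle were thus among those called with PGM1.

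**Figure D5:**
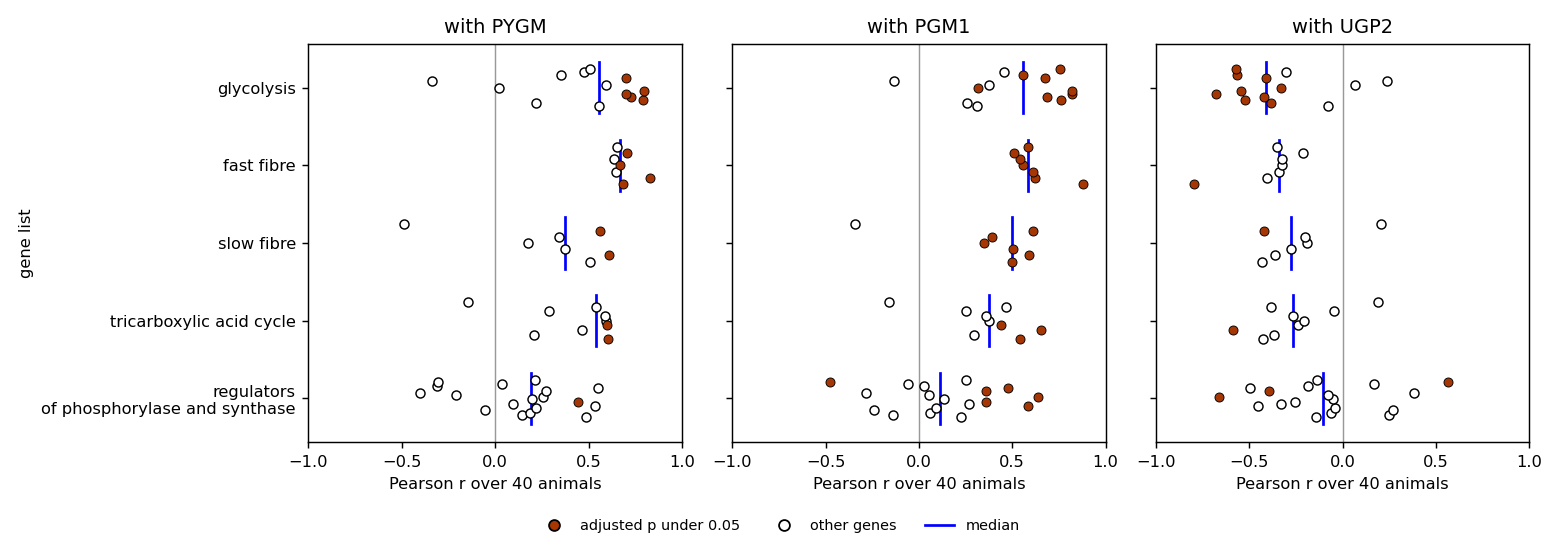
Pearson r over 40 animals (x axis) of each detected gene of 5 gene lists (y axis) with PYGM, PGM1 and UGP2. Filled points are genes called in the fit with sire as a fixed effect, open points the others, and blue lines the medians of the lists. The glycolysis medians are 0.557 with PYGM, 0.556 with PGM1 and -0.413 with UGP2.

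Phosphorylase and synthase are switched by phosphorylation, through phosphorylase kinase, cyclic AMP-dependent protein kinase, glycogen synthase kinase, AMP-activated kinase and protein phosphatase 1. Of 32 such regulators listed, 21 were measured and 18 detected. PPP1R3C, which targets protein phosphatase 1 to glycogen, had r = 0.637 with PGM1 and -0.661 with UGP2 and was called with both. PRKAR1A, a regulatory subunit of the cyclic AMP-dependent kinase, had the opposite signs, -0.479 with PGM1 and 0.563 with UGP2, and was also called with both. PRKAB1, a subunit of AMP-activated kinase, was called with PGM1 (0.358) and UGP2 (-0.394). In all, 5 of the 18 were called positive and 1 negative with PGM1, 1 positive and 2 negative with UGP2, and 1 positive with PYGM (PPP1R1A, an inhibitor subunit of protein phosphatase 1, 0.444). None was called with PYGL or GYG1. The counts for UGP2 are near the 13.7% of all detected genes called with it. The share over all detected genes was 16.1% with PGM1 and 2.44% with PYGM.

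Of the 18 regulators, 2 were called between muscling groups, a share near the 7.78% of all detected genes. PRKAR2A, another regulatory subunit of the cyclic AMP-dependent kinase, was higher in high muscling, with a mean log2 signal of 13.13 against 12.61 (difference 0.50, SE 0.09, adjusted p = 9.5e-04, limma). PPP1CB, a catalytic subunit of protein phosphatase 1, had 12.52 against 12.30 (difference 0.21, SE 0.06, adjusted p = 0.0347). With the spiked controls regressed out, which left 0 of all detected genes called, they were 0.37 (adjusted p = 0.340) and 0.12 (adjusted p = 0.533). The call of PPP1CB was also lost under median centring and without sire 2, 16 or 5 (adjusted p 0.193 to 0.341). Between sires within muscling groups 6 of the 18 regulators were called, where 22.0% of all detected genes were, with the smallest p for CALM3, a calmodulin gene (adjusted p = 2.2e-04), and PRKACB, a catalytic subunit of the cyclic AMP-dependent kinase (adjusted p = 0.0010). Of 11 other enzymes and proteins of glycogen listed, 2 were measured and neither was detected, namely GYS2, the liver synthase (mean signal 15.7), and GAA, the lysosomal glucosidase (14.0). Of 6 genes of glucose uptake and UDP-glucose use, none was called with any of the 5 genes or between groups.

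Some markers of other cells were called with UGP2 or PGM1 as well. Of all detected genes, 13.7% were called with UGP2, 16.1% with PGM1 and 2.44% with PYGM. Of 4 detected fat cell markers (of 7 listed), 3 were called with UGP2, all negative, among them LPL, lipoprotein lipase (-0.595), and ADIPOQ, adiponectin (-0.553), and 2 with PGM1, both positive. Their summed signals spanned 374 to 4487 in high and 543 to 5491 in low muscling, and LEP, leptin, was not detected (mean signal 15.5). Of 6 leukocyte markers, 4 were called with PGM1, all negative (median r -0.546), and none with UGP2, and the common leukocyte marker PTPRC was not detected (mean signal 44.9). Of 5 fibroblast markers, 2 were called with PGM1, both negative. Of 4 detected endothelial markers (of 5 listed), PECAM1, an adhesion molecule of vessels and blood cells, was called with UGP2 (r = 0.504, and 0.709 with sire means removed) and with PGM1 (-0.528). The endothelial markers CDH5, VWF and TEK were not called with either, and VWF had r = -0.126 with UGP2. S100B, the 1 detected Schwann cell marker of 4 listed, was called with UGP2 (-0.220, and -0.449 with sire means removed). None of 4 smooth muscle markers and not the 1 detected blood marker was called with any of the 5 genes. Of the 8 muscle fibre markers, 6 were called positive with PGM1, 2 positive with PYGM and 1 negative with UGP2 (CKM, muscle creatine kinase, -0.445). The count for UGP2 is near its share over all detected genes. With PYGL the 5 fibroblast markers had r from 0.467 (LUM, lumican) to 0.611 (COL1A2, a chain of type I collagen), and none was called. The part of these cells in the relations of UGP2, PGM1 and PYGL was not tested.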

How the data were processed

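The authors deposited MAS5 signals, an intensity on a linear scale, from the GeneChip Bovine Genome array, and the version of MAS5 is not given in the sources used here. In the values, the mean of each array with 2% trimmed at each end was 200. Gene names came from the annotation of the platform. The log2 of each signal was analysed without further normalization, with the probe set of highest mean per gene. Detection flags were left aside, and the number of arrays limits the precision.

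Muscling groups were tested with limma 3.58.1 (R 4.3.3), taking sire as the random block (correlation 0.13), sires within groups with an F test, and each detected gene was regressed on each glycogen gene with sire as a fixed effect. Values were adjusted by Benjamini-Hochberg over all detected genes, at a threshold of 0.05. Pairs were also tested with 100000 permutations within sires of the covariance within sires (numpy 2.4.6 and scipy 1.17.1 in Python 3.11.15). Scripts were tested on simulated data. Progeny of a sire are related, and p-values measure the spread between these animals.

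The genes and lists were chosen with earlier results of these data known. The text names all 7 genes, for each detected one the 3 genes of highest and the 2 of lowest r, and, of the regulator, glycolysis and other glycogen lists, the genes called, or the 2 with the smallest p where none or over 5 were called. Others are named as examples after their values were seen. Alternatives covered normalization, probe set, floor, filter, sire term, each sire family or muscling group left out, correlation measure and extreme animals.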

Additional observations from a re-analysis of the deposited data

Results flagged for a closer look

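Over the 7 genes and 6 sires, 42 groups of progeny were checked for an animal far from the others of its sire, and 3 were found, where about 1 in 20 groups is expected by chance. UGP2, the pyrophosphorylase, was low in progeny 65 of sire 16, at 9126.7 against 13184 in the nearest of the other 7, and this gap took a share of 0.666 of the range on the log2 scale. PYGM, the muscle phosphorylase, was high in progeny 32 of sire 5, at 21686 against 17069 in the nearest other animal (share 0.535). GBE1, the branching enzyme, was low in progeny 66 of sire 2, at 3.5 against 20.6 (share 0.608), and both signals are under the detection limit of 61.8.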

How the results depend on the processing

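Of 614 values under alternatives, 570 kept their direction and their side of the threshold, 28 lost a call, 9 gained one and 7 changed sign. The inverse relation of UGP2 and PGM1 was called under all 20 alternatives run for it (r -0.871 to -0.569, adjusted p up to 0.0250). The number of the 5 genes called between high and low muscling, 0 in the fit reported, was 1 with no sire block (PYGL, -0.42, adjusted p = 0.0228), 2 with sire as a fixed effect (PYGL, -0.40, adjusted p = 0.0313, and UGP2, -0.29, adjusted p = 0.0320), and 0 to 1 with each sire family left out. The fits with no sire block and with sire as a fixed effect take the progeny as the replicates of muscling. Between sires 1 gene (PYGL) was called with the mean of all probe sets. The number of pairs called, 2 as reported, was 1 under quantile normalization, 1 in high muscling alone, 1 to 2 with each sire family left out, and 3 with the actin ratio regressed out (PYGM with UGP2 added). Changes of sign touched pairs with PYGL, none of them called. With each sire family left out, PYGL with UGP2 had r from -0.014 (without sire 16) to 0.478 (without sire 5). In low muscling alone PYGM with PYGL had 0.181, PYGL with UGP2 -0.133 and PYGL with PGM1 0.0367. PYGL with GYG1 had 0.0227 without progeny 11 of sire 5 (added once the data had been seen) and 0.0913 without the 2 animals farthest from the median. LDHA on PYGM changed sign with the mean of all probe sets (-0.112). The causes were not tested. No paired analysis was possible because progeny numbers are not shared between groups.

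Over all detected genes, 495 were called between high and low muscling in the fit reported, 0 with the spiked controls regressed out, 1586 with no block and 1525 with sire as a fixed effect. Without sire 5, 16, 7, 2 and 17 there were 23, 29, 272, 290 and 1221. Between sires, 1402 were called, with 407 without sire 11 and 846 without sire 17. With PYGM, 155 were called, with 1 without sire 5, 42 without sire 11, 43 under quantile normalization and 531 with no sire term. With UGP2 and PGM1 the 870 and 1022 called became 215 and 294 in high and 183 and 235 in low muscling alone. With GYG1, 0 became 63 without sire 11 and 31 under median centring, and with PYGL 0 became 52 with no sire term.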
